A study of Mus musculus with 18 samples.

Results

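The 10 transcripts with lower levels in Esrrb knockout (KO) than in wild-type (WT) cells at every stage sampled, described here, are Mobp, Fgf3, Pkd2l1, Rhox5, Igfbp2, Smtnl1, Rab20, Eras, Upp1 and Plcd1. They are 10 of the 25909 genes counted, were taken by symbol from the gene tables, and had been chosen by their measured KO minus WT differences, which were below 0 at all stages. The KO against WT differences below therefore describe the choice and carry no test. The changes between stages within a genotype were not part of the choice and were tested. Whether the KO difference itself changed with stage was tested too. That test compares the differences used in the choice, which fixed their sign but not which was larger.

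The cells were mouse SGET embryonic stem cells (strain B6CBA/129), which carry a Stella and an Esg1 fluorescent reporter, kept in 2i/L medium, with the Esrrb gene intact (WT) or knocked out (EsrrbKO). Epiblast-like cells (EpiLC), induced with ActivinA and bFGF, were collected unsorted. Primordial germ cell-like cells (PGCLC), induced from EpiLC with BMP4, LIF, SCF, BMP8a and EGF, were sorted as SG+ETlow on day 3 or day 5. PolyA RNA was sequenced from 3 libraries in each of the 6 groups, numbered 1, 2 and 3 in WT and named A5, B1 and A2 in KO; the labels do not say whether a KO name stands for a single clone, or whether the WT numbers are separate cultures, so the spread between libraries may be technical. The day 5 libraries carry day 6 in a second label.

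Esrrb encodes an orphan nuclear receptor that binds DNA as a single molecule at extended AAGGTCA elements and belongs to the network of naive pluripotency. Its RNA falls when stem cells leave the naive state for an epiblast-like state and returns as germ cell-like cells form. The members have no shared family: they include a growth factor, a binding protein for insulin-like growth factors, a cation channel, small GTPases, a phospholipase, a nucleoside-cleaving enzyme, a homeobox protein, a myelin protein and a muscle-type cytoskeletal protein.

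Esrrb itself was at 33.3, 27.9 and 20.6 CPM (read counts scaled to a common library size with TMM factors) in WT EpiLC and at 6.71, 4.54 and 39.8 CPM in KO EpiLC, lines in the order A5, B1, A2. The library labelled KO A2 in EpiLC thus lay above every WT library and went against its KO label. It did share a feature of line A2. Its median log2 ratio to WT on chromosome 11 was -0.52, with -0.45 and -0.48 in the A2 libraries of day 3 and day 5. The A5 and B1 libraries lay within 0.07 of WT there. At day 3 Esrrb was at 627, 588 and 612 CPM in WT and 162, 165 and 91.5 CPM in KO, and at day 5 at 589, 598 and 563 against 143, 201 and 129 CPM. The groups did not overlap at these stages, and the loss of Esrrb RNA passed at both, with KO minus WT values of -2.13 ± 0.43 (log2, SE; adjusted p = 0.00554) and -1.89 ± 0.42 (adjusted p = 0.00598) by edgeR's quasi-likelihood test. The EpiLC difference did not pass (-0.68 ± 0.52, adjusted p = 0.401). The sources used here do not give which part of the gene was removed, so the reads left in KO check the label only in part.

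Libraries held 3032965 to 5286330 counts. The EpiLC library labelled KO A2 also stood apart in markers of other cell types. Its 12 fibroblast markers summed to 7598 CPM, against 551 to 772 CPM in the other EpiLC libraries, and its 15 endoderm markers to 3205 against 322 to 613 CPM, while its 14 formative epiblast markers summed to 2379 against 4702 to 7071 CPM. The Lum and Ttr markers of these lists were at 0 in every KO EpiLC library. The 20 naive pluripotency markers, Esrrb and Fgf4 among them, summed to 4366 to 4602 CPM in WT and 2595 to 2958 CPM in KO at day 3, and to 4337 to 4623 against 2847 to 3775 CPM at day 5. In bulk RNA, fewer cells of a type and less RNA per cell cannot be told apart, and the part of these markers in the results was not tested; EpiLC results are given with and without this library.

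The sequence before the transcription start was searched for the element bound by Esrrb, because the members share a lower level in its absence. RefSeq promoter windows (GRCm38.p6, 250 bases before to 50 after the start) were found for 9 of the 10 members, 13 windows in all, and Pkd2l1 had none. TCAAGGTCA, TNAAGGTCA and AAGGTCA, nested motifs searched on both strands, occurred in 0 of these 13 windows, and in 0.423%, 1.28% and 4.72% of all 32851 windows. A 9-letter stretch differing from TCAAGGTCA in at most 1 letter was present in 2 of the 13 windows, those of Smtnl1 and of 1 Plcd1 start, and in 7.46% of all windows. The Rhox5 window lies upstream of the gene start used for its coordinates here, at another RefSeq start. These are descriptions of short windows and say nothing of binding elsewhere. The Smtnl1 stretch (chr2:84822653-84822902, GRCm38, minus strand) is shown with the near match TCAAGGTCT in capitals.
Smtnl1: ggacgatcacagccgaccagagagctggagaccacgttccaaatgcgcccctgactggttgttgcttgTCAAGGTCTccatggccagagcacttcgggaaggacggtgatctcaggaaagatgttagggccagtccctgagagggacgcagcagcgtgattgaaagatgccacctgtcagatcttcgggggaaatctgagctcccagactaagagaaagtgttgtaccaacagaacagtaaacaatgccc
Mobp, the member with the largest KO difference, is shown over chr9:120149492-120149706 (plus strand, ending before its first annotated base), with capitals on CTTTGT, a motif picked after the window had been read.
Mobp: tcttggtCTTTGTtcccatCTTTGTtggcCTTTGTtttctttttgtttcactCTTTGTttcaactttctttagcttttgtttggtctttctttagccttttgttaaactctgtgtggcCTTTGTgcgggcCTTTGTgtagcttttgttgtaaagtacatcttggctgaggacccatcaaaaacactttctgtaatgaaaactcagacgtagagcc
The Mobp stretch holds 6 copies of CTTTGT. Among the 32851 windows, 1 held at least that many on both strands, that of Mobp itself, and 18.7% held at least 1. Because the motif was picked from this window, its rarity is a description and no test.

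Gene coordinates are those of GENCODE M21 on GRCm38. Levels are given below in CPM for replicates 1, 2 and 3 in WT and for lines A5, B1 and A2 in KO. All 10 members were called lower in KO at an adjusted p under 0.05 at every stage, as their choice required. Over all 12856 tested genes, 4.15%, 5.18% and 7.62% were called lower at these stages. In all 10 members every KO library lay below every WT library at each stage, which held for 16.3%, 18.3% and 20.3% of tested genes. At all 3 stages together, 40 genes (0.311%) were called lower, and 325 genes (2.53%) had no overlap. The median log2 fold change of the members was -1.53, -2.16 and -1.63 in stage order, against 0.01 for all genes; with Pkd2l1, at 0 in KO at day 3, set to its bound, the day 3 median was -2.03. Ordered by their mean over the stages among those 40 genes, the members filled the first places save 2, which were held by Ldhb (-2.28) and a predicted gene. Plcd1, the last member, had a mean of -1.11 and Aldh1b1, the next gene outside, -0.88.

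**Figure D1:**
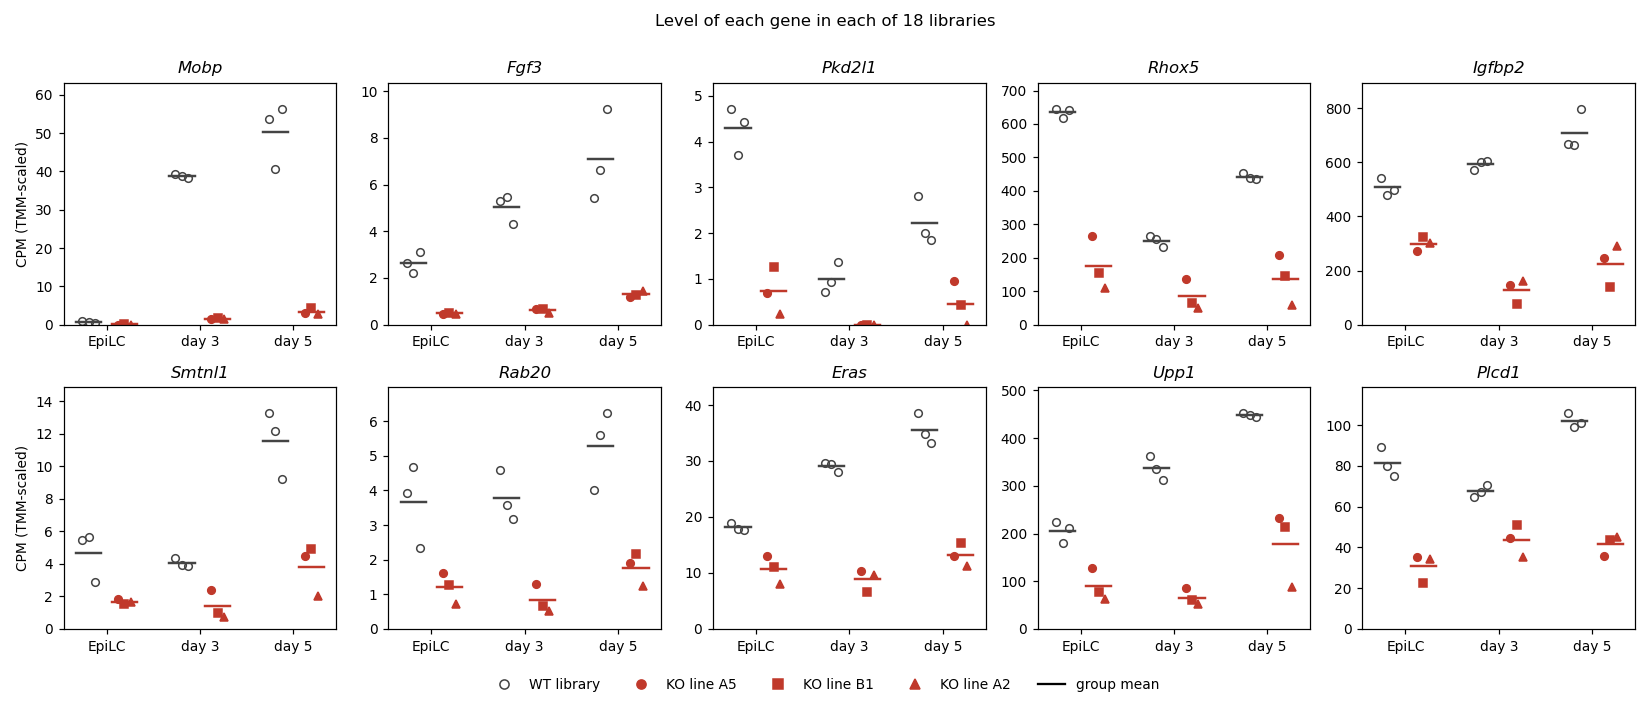
Level of each of the 10 genes in each of 18 libraries, in CPM on a linear axis starting at 0, by stage; open circles are WT libraries, filled symbols KO lines, and horizontal lines group means (n = 3). In every panel and stage the KO symbols lie below the WT circles.

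The secreted members were Fgf3 and Igfbp2. Fgf3 (ENSMUSG00000031074, chr7:144838083-144844436, plus strand) is a fibroblast growth factor with roles in inner ear and tail development. It was at 2.62, 2.22 and 3.13 CPM in WT EpiLC and 0.463, 0.504 and 0.476 CPM in KO EpiLC. At day 3 it was at 5.31, 5.46 and 4.32 CPM in WT and 0.652, 0.662 and 0.51 CPM in KO, and at day 5 at 5.43, 6.61 and 9.25 against 1.19, 1.29 and 1.43 CPM. The KO libraries were close to each other and all low, resting on 6, 7 and 18 counts per group. The log2 fold changes were -2.40 ± 0.39, -3.00 ± 0.35 and -2.41 ± 0.29 (SE, n = 3 against 3), so that the KO mean was 18.1%, 12.1% and 18.4% of WT.

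Igfbp2 (ENSMUSG00000039323, chr1:72824503-72852474, plus strand) binds insulin-like growth factors outside the cell and was among the most abundant members. It was at 543, 480 and 499 CPM in WT EpiLC and 273, 323 and 300 CPM in KO EpiLC. At day 3 it was at 571, 600 and 604 CPM in WT and 146, 74.8 and 161 CPM in KO, and at day 5 at 667, 664 and 798 against 245, 138 and 290 CPM. WT libraries stayed within a narrow band at each stage, whereas line B1 was the lowest KO library in both PGCLC stages. The log2 fold change was -0.77 ± 0.24 in EpiLC, -2.21 ± 0.25 at day 3 and -1.66 ± 0.24 at day 5.

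Mobp (ENSMUSG00000032517, chr9:120149707-120181484, plus strand) encodes myelin-associated oligodendrocyte basic protein, a structural protein of central nervous system myelin. In EpiLC it was close to absent, at 1.05, 0.741 and 0.522 CPM in WT and 0, 0.252 and 0 CPM in KO. It was at 39.4, 38.8 and 38.2 CPM in WT and 1.52, 1.65 and 1.53 CPM in KO at day 3, and at 53.7, 40.7 and 56.4 against 3.09, 4.3 and 2.86 CPM at day 5. KO PGCLC therefore held 4.04% and 6.8% of the WT mean, the lowest shares of any member with counts in both groups (log2 fold changes -4.61 ± 0.25 and -3.87 ± 0.22). The EpiLC ratio rests on 9 against 1 counts and was 9.61, with an exact 95% interval from 1.33 to 421 that covers counting error only. Other myelin genes did not mark oligodendrocytes in these libraries: Mog, Opalin and Ermn were at 0 in all groups, and of the 6 tested genes of the myelin list Mobp was the only one called in KO against WT at any stage. The rest of that list summed to 91.5 to 96.8 CPM in WT and 74.2 to 92.5 CPM in KO at day 3.

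Pkd2l1 (ENSMUSG00000037578, chr19:44147637-44192442, minus strand) is a polycystin-family cation channel of sour-sensing taste cells and of neurons that contact the cerebrospinal fluid. It was the sparsest member. It was at 4.72, 3.71 and 4.43 CPM in WT EpiLC and 0.695, 1.26 and 0.238 CPM in KO. At day 3 WT held 0.724, 0.942 and 1.36 CPM and all KO libraries 0, and at day 5 WT held 2.81, 2 and 1.85 CPM and KO 0.951, 0.43 and 0 CPM. The day 3 groups held 14 and 0 counts, so Pkd2l1 was at least 3.89-fold lower in KO, taking 3 counts over the group as the floor. The log2 fold changes at the other stages were -2.52 ± 0.58 and -2.27 ± 0.65.

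The signalling members inside the cell were Eras, Plcd1 and Rab20. Eras (ENSMUSG00000031160, chrX:7924276-7928607, minus strand) encodes a Ras protein of embryonic stem cells that stays in its active form. It was at 18.9, 17.8 and 17.7 CPM in WT EpiLC and 13, 11.1 and 8.1 CPM in KO EpiLC. At day 3 it was at 29.7, 29.4 and 28 CPM in WT and 10.4, 6.62 and 9.68 CPM in KO, and at day 5 at 38.6, 34.8 and 33.3 against 13.1, 15.3 and 11.2 CPM. The gap was narrowest in EpiLC, with log2 fold changes of -0.76 ± 0.18, -1.68 ± 0.18 and -1.43 ± 0.17.

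Plcd1 (ENSMUSG00000010660, chr9:119071527-119093502, minus strand) encodes a phospholipase C that cleaves the membrane lipid PIP2 to release IP3 and diacylglycerol. Its levels were 89.1, 79.8 and 75.1 CPM in WT EpiLC and 35.4, 22.4 and 34.3 CPM in KO EpiLC. At day 3 they were 64.9, 67.2 and 70.5 CPM in WT and 44.5, 50.9 and 35.2 CPM in KO, and at day 5 106, 98.9 and 101 against 35.9, 43.5 and 45.2 CPM. In contrast to Eras, the gap was narrowest at day 3, where KO held 64.5% of WT. The log2 fold changes were -1.40 ± 0.16, -0.64 ± 0.15 and -1.30 ± 0.15.

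Rab20 (ENSMUSG00000031504, chr8:11453518-11478710, minus strand), a small GTPase of endosomes and phagosomes, was low throughout. It was at 3.93, 4.69 and 2.35 CPM in WT EpiLC and 1.62, 1.26 and 0.714 CPM in KO. Day 3 levels were 4.59, 3.58 and 3.18 against 1.3, 0.662 and 0.51 CPM, and day 5 levels 4.02, 5.61 and 6.24 against 1.9, 2.15 and 1.23 CPM. Line A2 gave the lowest value at all stages, and the KO groups held 15, 10 and 24 counts. KO minus WT log2 fold changes were -1.59 ± 0.41, -2.10 ± 0.44 and -1.57 ± 0.37.

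Upp1 (ENSMUSG00000020407, chr11:9118103-9136170, plus strand) encodes uridine phosphorylase, which splits uridine into uracil and ribose phosphate in pyrimidine salvage. It was at 225, 181 and 211 CPM in WT EpiLC and 128, 78.1 and 63.6 CPM in KO EpiLC. At day 3 it was at 363, 335 and 313 CPM in WT and 84.9, 60.5 and 52.2 CPM in KO, and at day 5 at 453, 449 and 445 against 233, 213 and 87.5 CPM. Line A2 was again the lowest at every stage. The log2 fold changes were -1.19 ± 0.30, -2.35 ± 0.31 and -1.34 ± 0.29; without the A2 libraries they were -2.19 at day 3 and -1.02 at day 5. Upp1 lies on chromosome 11, where the median over tested genes was lower by 0.52, 0.45 and 0.48 (log2) in line A2 than in WT at the 3 stages, but within 0.07 of WT in the other lines.

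Rhox5 (ENSMUSG00000095180, chrX:37804842-37808876, plus strand) encodes an X-linked homeobox protein expressed in embryonic stem cells, placenta and Sertoli cells, and had the highest level per length of all members, 843 CPM per kilobase of exon in WT EpiLC. Its levels were 646, 617 and 643 CPM in WT EpiLC and 266, 154 and 110 CPM in KO EpiLC. At day 3 they were 266, 257 and 231 against 138, 65.8 and 49.7 CPM, and at day 5 452, 438 and 435 against 208, 146 and 59.7 CPM. The KO lines kept 1 order at all stages, A5 above B1 above A2, and spread far more than the WT libraries. The log2 fold changes were close to each other, -1.85 ± 0.39, -1.56 ± 0.40 and -1.68 ± 0.39.

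Smtnl1 (ENSMUSG00000027077, chr2:84811176-84822652, minus strand) encodes smoothelin-like 1, a regulator of contraction in smooth and skeletal muscle. It was at 5.5, 5.68 and 2.87 CPM in WT EpiLC and 1.85, 1.51 and 1.67 CPM in KO. Day 3 levels were 4.35, 3.95 and 3.86 against 2.39, 0.992 and 0.764 CPM, and day 5 levels 13.3, 12.2 and 9.25 against 4.52, 4.95 and 2.04 CPM. WT and KO were both highest at day 5, and KO held 35.8%, 34.1% and 33.1% of WT. The other 11 genes of the muscle list summed to 35.5 to 43.7 CPM in WT and 19.4 to 25.6 CPM in KO at day 3, and to 53.3 to 58.5 against 24.8 to 37.6 CPM at day 5; their part in the Smtnl1 difference was not tested. KO minus WT log2 fold changes were -1.47 ± 0.41, -1.47 ± 0.43 and -1.60 ± 0.34.

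**Figure D2:**
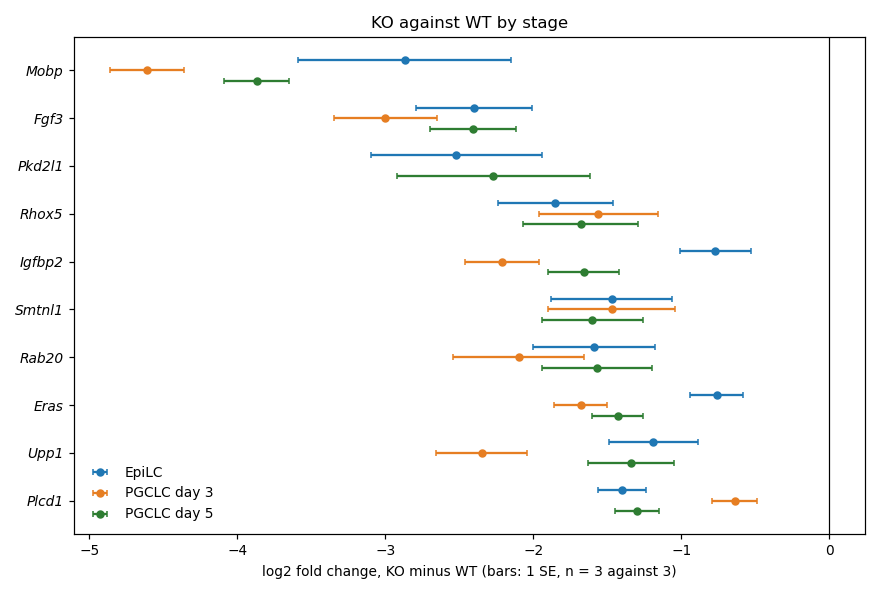
Log2 fold change of KO minus WT for each gene in EpiLC and PGCLC at day 3 and day 5, with 1 SE (n = 3 against 3). All points lie below 0; the day 3 value of Pkd2l1 is left out because KO held 0 counts.

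The EpiLC calls varied most with the libraries used. In the EpiLC library labelled KO A2, despite its Esrrb level, all 10 members were below every WT library. Without it the EpiLC log2 fold changes were -2.39 for Fgf3, -2.11 for Pkd2l1, -1.60 for Rhox5, -0.77 for Igfbp2, -1.46 for Smtnl1, -1.33 for Rab20, -0.59 for Eras and -1.49 for Plcd1; Upp1 had an adjusted p of 0.0871. Only Fgf3, Pkd2l1, Rhox5 and Plcd1 then stayed under an adjusted p of 0.05. Over all genes, the number called lower in EpiLC went from 533 to 297 without that library. The count of members called in EpiLC was 2, 2 and 3 without WT EpiLC library 1, 2 or 3, where the count over all genes was 80, 80 and 90. At day 3 it was 6 without WT library 2 or KO A2, with 356 and 423 genes called lower in all against 666, and at day 5 at least 9 without any 1 library.

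The KO lines did not share the loss evenly. Over the 30 combinations of a member and a stage, line A2 gave the lowest KO level in 18, and A5 and B1 in 5 each, with 2 ties; A5 gave the highest in 14, B1 in 11 and A2 in 4, with 1 tie. Igfbp2 departed from this order, with A2 the highest line at day 3 and day 5 (27.3% and 40.8% of the WT mean) and B1 the lowest (12.6% and 19.4%). Fgf3 varied little, between 10.1% and 20.2% of WT in any line and stage. The 3 libraries per stage allow no test of a line.

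The first step, from EpiLC to day 3 PGCLC, asked how the members move in WT cells. Mobp rose most, by 5.60 ± 0.28 on the log2 scale (adjusted p = 9.72e-10), from 0.77 to 38.8 CPM. Fgf3 rose by 0.92 ± 0.27 (adjusted p = 0.00936), Eras by 0.68 ± 0.17 (adjusted p = 0.00302) and Upp1 by 0.71 ± 0.29 (adjusted p = 0.0443). Pkd2l1 fell by 2.05 ± 0.54 (adjusted p = 0.00463) and Rhox5 by 1.34 ± 0.39 (adjusted p = 0.00776), from 635 to 251 CPM. For these 6 genes the WT libraries of both stages did not overlap; 5 members, Igfbp2 included, had all day 3 libraries above EpiLC, against 38.7% of genes. Igfbp2, Smtnl1, Rab20 and Plcd1 did not pass, with log2 fold changes of 0.22 ± 0.24, -0.21 ± 0.37, 0.04 ± 0.35 and -0.27 ± 0.15. Thus 4 members were called higher and 2 lower, where 29.0% and 28.5% of all tested genes were. Upp1 missed the threshold without any 1 WT library of EpiLC or day 3, WT day 5 library 3 or KO day 3 line B1 (adjusted p up to 0.129), and Fgf3 missed it by DESeq2 (adjusted p = 0.056).

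The same step was then tested in KO cells alone, and its difference from WT is given by the interaction term below. Igfbp2 fell by 1.22 ± 0.24 (adjusted p = 0.000974), from 298 to 127 CPM, with all KO day 3 libraries below all KO EpiLC libraries, as in 2 members and 19.6% of all genes. Rhox5 fell by 1.05 ± 0.40 (adjusted p = 0.0443). The groups overlapped, but the level was lower at day 3 in each line, from 266 to 138 CPM in A5, 154 to 65.8 in B1 and 110 to 49.7 in A2, and the fit with the line as a block gave an adjusted p of 2.88e-05. Plcd1 rose by 0.50 ± 0.16 (adjusted p = 0.0208), from 30.7 to 43.5 CPM, also with overlap. Mobp, called higher (adjusted p = 0.000154), went from 1 to 18 counts, a ratio of 19.5 with an exact 95% interval from 3.07 to 811. Pkd2l1, called lower (adjusted p = 0.0155), went from 9 to 0 counts, at least 2.78-fold lower. Fgf3, Eras and Upp1, which rose in WT, gave 0.32 ± 0.49, -0.25 ± 0.19 and -0.44 ± 0.30 in KO and did not pass. Of these, Eras alone passed the interaction test of edgeR for this step. Among all genes 20.6% were called higher and 21.4% lower in this step. Without the EpiLC library labelled KO A2 the calls held, with log2 fold changes of -1.21 for Igfbp2, -1.29 for Rhox5, and 0.58 for Plcd1; Mobp and Pkd2l1 also stayed called (adjusted p = 0.0011 and 0.00696). Without the block, Rhox5 was called in 4 of the 18 fits that left out a library (adjusted p up to 0.233); these left out KO EpiLC A2, KO day 3 A5, KO day 5 A5 or KO day 5 A2. Plcd1 missed the threshold without KO EpiLC B1, KO day 3 A5 or KO day 3 B1 (adjusted p up to 0.0996), and Pkd2l1 without KO EpiLC B1 (adjusted p = 0.0543).

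An interaction term compares KO differences that were used to choose the members, so its p-values are not independent of that choice. Whether the KO difference changed from EpiLC to day 3 was tested with this term. It became larger for Igfbp2, by -1.44 ± 0.34 on the log2 scale (adjusted p = 0.0211), and for Eras, by -0.92 ± 0.26 (adjusted p = 0.043). For Plcd1 it became smaller, by 0.76 ± 0.22 (adjusted p = 0.0484). Of all tested genes, 3.63% gave a negative and 2.96% a positive interaction at this threshold. The other members did not pass, with -1.15 ± 0.42 for Upp1 (adjusted p = 0.106) the nearest. Fgf3 gave -0.60 ± 0.60, Rab20 -0.52 ± 0.62 and Rhox5 0.29 ± 0.55. Smtnl1 gave -0.00, too near 0 for the SE used here to be of use. Pkd2l1 and Mobp, with 0 or 1 counts in a KO group, had adjusted p of 0.297 and 0.667 by edgeR. For Mobp, limma on log2(CPM + 1) gave an interaction of -3.28 on that scale (adjusted p = 1.12e-05). Without the EpiLC library labelled KO A2 the values were -1.43 for Igfbp2 (adjusted p = 0.0246), -1.08 for Eras (0.0103) and 0.85 for Plcd1 (0.0262).

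The interaction calls were close to the threshold. Igfbp2 missed it without WT EpiLC 2 or 3 or WT day 3 library 2 or 3 (adjusted p up to 0.0569). Eras missed it without any 1 WT library, KO EpiLC A5, KO day 3 B1 or KO day 3 A2 (adjusted p up to 0.0959). Plcd1 missed it without any 1 WT library, KO EpiLC B1, KO day 3 A5, KO day 3 B1 or KO day 5 B1 (adjusted p up to 0.114). With the replicate name as a block, Plcd1 had an adjusted p of 0.056 and Upp1 of 0.00952 (interaction -1.13).

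**Figure D3:**
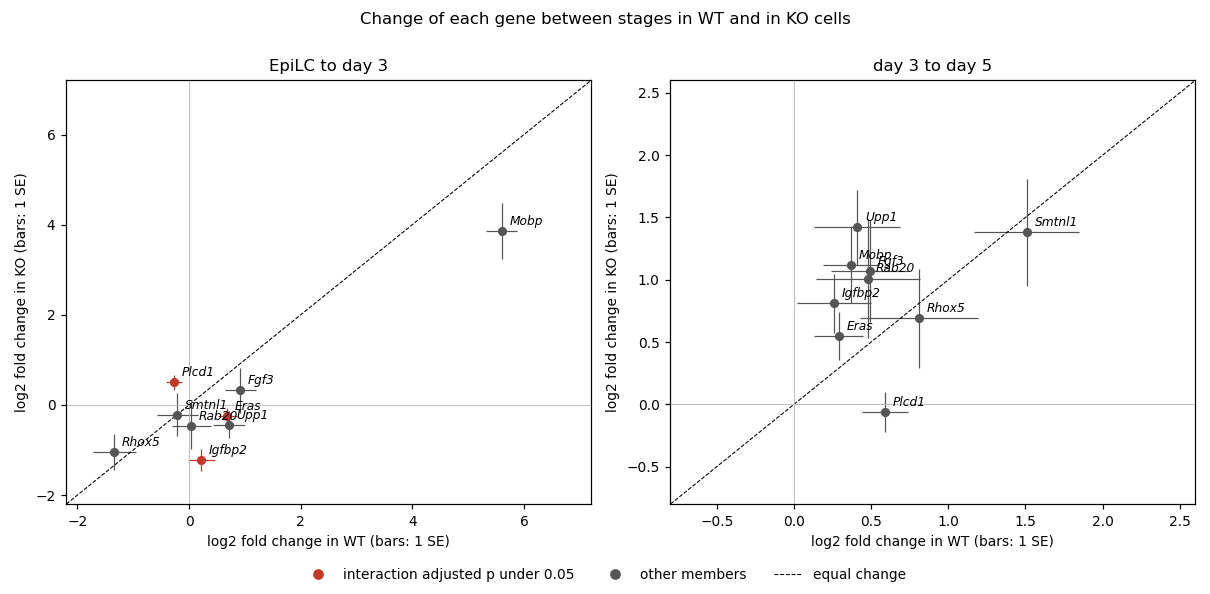
Log2 fold change in KO against that in WT for the step from EpiLC to day 3 (left) and from day 3 to day 5 (right), with 1 SE; the dashed line marks equal change, and Pkd2l1 is left out because a KO group held 0 counts. Red points are Igfbp2, Eras and Plcd1, whose interaction passed; the KO value of Mobp at left rests on 1 count in EpiLC.

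Between day 3 and day 5, 0.288% of genes were called higher and 0.482% lower in WT (37 and 62 genes). These counts depended on which libraries set the spread: without line A2 they were 984 and 1032 of 12989 genes, and with WT day 3 and day 5 libraries alone 1804 and 1874 of 11922. All 10 members had a higher WT mean at day 5, and in 8 every day 5 library lay above every day 3 library, which held for 20.0% of genes. None passed edgeR's quasi-likelihood test; 4 had an unadjusted p under 0.05, and DESeq2 called 2, Smtnl1 and Plcd1. Smtnl1 gave 1.51 ± 0.34 (adjusted p = 0.0504) and Plcd1 0.59 ± 0.15 (adjusted p = 0.0681), with their 3 day 5 libraries all above day 3. In the fit of those WT libraries alone, with its 1804 genes called higher, 7 members passed, and 4 passed without line A2. In KO, 9 members had a higher mean at day 5, 4 of them without overlap (7.39% of genes), and Upp1 was called higher, from 65.9 to 178 CPM (1.42 ± 0.30, adjusted p = 0.0491), against 0.366% of all genes. That call was lost without any 1 of the 9 WT libraries, KO day 3 B1 or A2, or KO day 5 A5 or B1 (adjusted p up to 0.227), and the block fit gave an adjusted p of 0.00215.

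No member passed the interaction test for this second step by edgeR's quasi-likelihood test, where 2 had an unadjusted p under 0.05. None passed by DESeq2 either, but it gave no adjusted p for Smtnl1, Fgf3, Rab20 and Pkd2l1. Of all genes, 0.00% passed in either direction by edgeR, and DESeq2 called 10 positive and 2 negative. Plcd1 (-0.66 ± 0.22, adjusted p = 0.981) and Upp1 (1.01 ± 0.41) gave the opposite sign to their first step. The KO difference of Plcd1 was -1.40 in EpiLC, -0.64 at day 3 and -1.30 at day 5.

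Relatives of the members were taken from family lists; over all tested genes 4.15%, 5.18% and 7.62% were called lower and 6.93%, 5.00% and 9.83% higher in EpiLC, at day 3 and at day 5. Of 14 tested fibroblast growth factor ligands and receptors, 2 were lower in KO EpiLC (Fgf3, Fgf5), 3 at day 3 (Fgf3, Fgf4, Fgf15) and 3 at day 5 (Fgf3, Fgf4, Fgfr2), and 0, 1 and 3 were higher. Fgf4, the ligand of pluripotent cells, had log2 fold changes of -1.89 ± 0.39 at day 3 and -1.18 ± 0.37 at day 5. Fgf5, a marker of the formative epiblast, was lower in EpiLC (-1.40 ± 0.35) and higher at day 5 (3.23 ± 0.87). The day 5 means were low, 0.211 CPM in WT and 2.29 CPM in KO, with a KO standard deviation of 2.34. The list's medians were -0.05, 0.39 and 0.16, with 0.01 for all genes. Without the EpiLC library labelled KO A2, 3 of the list were lower in EpiLC.

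Of 14 tested genes of the insulin-like growth factor axis, Igfbp2 was the only one called lower at any stage, while 4, 0 and 6 were called higher, where 6.93%, 5.00% and 9.83% of all genes were. Other binding proteins were higher in KO at day 5: Igfbp5 by 3.39 ± 0.92 and Igfbp4 by 1.39 ± 0.45 on the log2 scale. The day 5 means of Igfbp5 were 1.19 CPM in WT and 12.6 CPM in KO, with a KO standard deviation of 13.8. Igfbp5 is the next tested gene after Igfbp2 on chromosome 1. In EpiLC, Irs1, an adaptor of the insulin receptor, was higher by 2.32 ± 0.65, but by 0.45 (adjusted p = 0.441) once the A2 library was left out, and 1 gene of the axis, Igfbp4, was then called higher.

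Among 20 tested Ras-family genes Eras was the only one lower, at every stage. Of 12 tested phospholipase C genes, Plcd1 was lower at all stages and Plcg2 in EpiLC (-0.74 ± 0.16), whereas Plcb4 was higher at day 3 (1.07 ± 0.15) and Plce1 at day 5 (2.55 ± 0.65). Of 21 tested endosomal Rab genes Rab20 was the only one lower, and Rab22a was higher at all stages (0.52 ± 0.15, 0.59 ± 0.15 and 0.51 ± 0.15). Without the EpiLC library labelled KO A2, no Ras or Rab gene was called in EpiLC in either direction, Eras (-0.59, adjusted p = 0.0669), Rab20 (-1.33, 0.0944) and Rab22a (0.29, 0.215) included.

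Pyrimidine metabolism held another gene called lower at every stage, and named for this after its values were seen: Uck2, the kinase that turns uridine into its monophosphate (-0.34 ± 0.08, -0.42 ± 0.08 and -0.33 ± 0.08). Of the 26 tested genes on this list, 5, 2 and 5 were lower, Upp1 included, and 2, 2 and 4 higher, with medians of -0.30, -0.10 and -0.24. Over all genes 4.15%, 5.18% and 7.62% were lower and 6.93%, 5.00% and 9.83% higher, with a median of 0.01. The nucleoside transporter Slc28a3 was higher at day 3 (1.87 ± 0.55) and day 5 (3.38 ± 0.68). Without the EpiLC library labelled KO A2, the EpiLC counts were 3 lower and 1 higher, and Upp1 was among those no longer called.

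Only 5 of the genes listed in the Rhox cluster were tested. Rhox6 and Rhox9, neighbours of Rhox5, were called higher in KO EpiLC (3.00 ± 0.89 and 3.29 ± 0.89), where Rhox5 was lower. Both lost the call once the A2 library was left out (0.82 and 0.99). In WT cells Rhox5 fell from EpiLC to day 3 while Rhox6 went from 2.58 to 47.2 CPM and Rhox9 from 2.05 to 46.2 CPM, both called higher.

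Of 4 tested polycystins Pkd2l1 was the only one lower, and Pkd1 was higher in EpiLC (0.91 ± 0.17; 0.64 leaving out A2). Among 10 tested genes of the contractile list Smtnl1 was lower at each stage, joined at day 5 by Ppp1r12b (-0.59 ± 0.17). In EpiLC, Acta2 and Tagln, an actin and an actin-binding protein of smooth muscle and fibroblasts, were higher in KO (4.86 ± 1.01 and 4.63 ± 0.73). Both stayed called leaving out A2, Acta2 at 3.25 (adjusted p = 0.0302), whereas Smtnl1 did not (adjusted p = 0.0879).

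The tested genes next to the members, 3 on each side, were examined for a change over the wider region. Some lie far off: Fignl1, Ddc and Grb10 start 2669 to 2812 kb from Upp1, and Tns1 and Arpc2 1086 and 1412 kb from Igfbp2. None of the 60 was called lower at all 3 stages by edgeR. This held for 0.311% of all tested genes, too small a share for 60 genes to show a difference. In EpiLC 2 were called lower, at day 3 10 and at day 5 12, and 6, 0 and 3 were called higher. The shares over all tested genes were 4.15%, 5.18% and 7.62% lower and 6.93%, 5.00% and 9.83% higher. Eras was the member with most such neighbours: Pcsk1n (-3.23 at day 3 and -3.54 at day 5), Hdac6 (-1.12 and -0.98), Gata1 (-2.41 and -1.89) and Glod5 (-2.05 and -4.31) were lower at both PGCLC stages, and none passed in EpiLC. Hdac6, a cytoplasmic deacetylase, starts 5.84 kb and Gata1, a blood-lineage transcription factor, 35 kb from the start of Eras. Beside Fgf3, Fgf4 was lower at both PGCLC stages and Fgf15 at day 3 (-2.78). Vill and Acaa1b beside Plcd1 and Ube2l6 beside Smtnl1 were also lower at both. None of the 6 neighbours of Mobp was called at any stage.

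**Figure D4:**
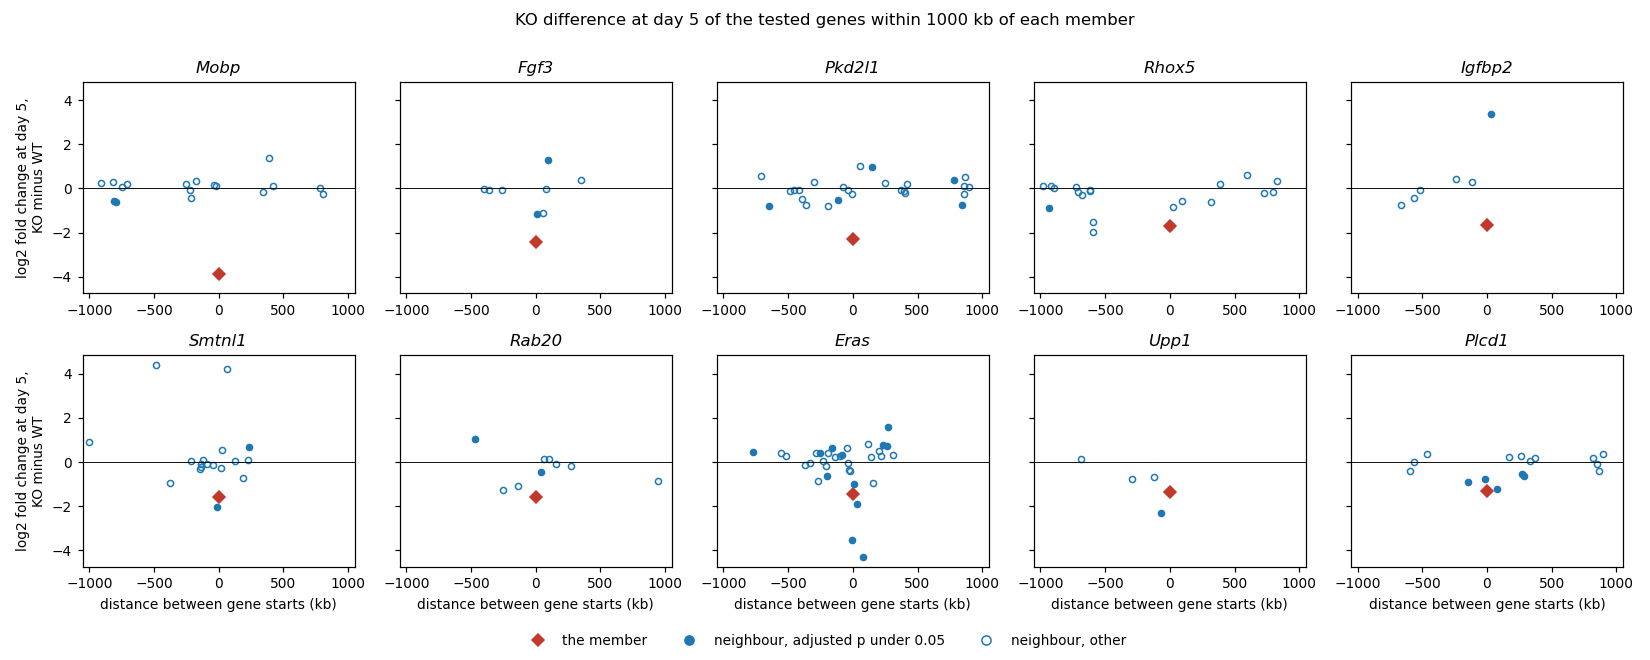
Log2 fold change at day 5, KO minus WT, of tested genes within 1000 kb of each member against the distance between gene starts; the red diamond is the member, filled circles are neighbours with an adjusted p under 0.05. Several filled circles lie below 0 around Eras and Plcd1, others farther from Eras lie above 0, and the nearest to Mobp lies at -792.3 kb.

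Chromosome medians were compared as well, and their part in the members' differences was not tested. Over the 3 KO lines, median log2 fold changes were 0.14, 0.13 and 0.11 for chromosome 1 (Igfbp2) and -0.08, -0.14 and -0.15 for chromosome 8 (Rab20), and lay between -0.11 and 0.11 for the chromosomes of the other members. Measured from its chromosome's median, Igfbp2 differed by -0.91, -2.34 and -1.77, Rab20 by -1.51, -1.96 and -1.42, and Upp1 by -1.08, -2.29 and -1.25. Line A2 taken alone had medians of 0.24, 0.28 and 0.28 on chromosome 1 and -0.52, -0.45 and -0.48 on chromosome 11.

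Across the 18 libraries the members' log2 levels went together, with pairwise Pearson correlations from 0.19 to 0.95 and a median of 0.77 over 45 pairs. These describe 6 groups that were used to choose the members, and the libraries share their depth and genotype. Among the genes outside the set whose profile was most like the members' mean, of 10884 ranked over the 18 libraries, were Got1 (r = 0.927), Cox17 (0.924), Atp5b (0.915), Mpv17l2 (0.912), Fdxr (0.907), Agpat2 (0.905) and Rpp21 (0.904). Got1, the cytosolic aspartate aminotransferase, went from 199, 232 and 253 CPM in WT to 146, 134 and 146 CPM in KO at the 3 stages. Cox17, a copper chaperone of cytochrome oxidase, went from 119, 106 and 151 to 78, 64.7 and 75.4 CPM. Esrrb itself was less alike (r = 0.492). Its level was low in both genotypes in EpiLC, with the library labelled KO A2 above every WT library there. The part of these values in the lower correlation was not tested.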

How the data were processed

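RNA was polyA-selected after PicoPure extraction, and libraries were made with NEBNext Ultra II Directional, per the labels' protocols. Per the submitters' processing notes, Trim Galore 0.4.3.1 and the builds mm10 and GRCm38.p4 were used; for the aligner, the counter and strandedness, the entry is "not given in the sources used here"; reads of overlapping or antisense genes may not be separable. The authors deposited raw counts per gene and CPM tables; the deposited CPM equalled counts over the library total within 1e-06. Rows without a gene ID (56 of 25965, 0.0559 to 0.0828% of counts) were left out. Libraries held 3032965 to 5286330 counts (median 4246221), and intervals cover counting error only.

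Counts were tested with edgeR 4.0.16 (quasi-likelihood, TMM factors 0.964 to 1.04, filterByExpr, 12856 genes, robust; R 4.3.3) with 1 mean for each of 6 groups over 18 libraries. P-values were adjusted by Benjamini-Hochberg per comparison at a threshold of 0.05. Each SE was derived from the test, as the absolute log2 fold change over the square root of the F statistic. It is unstable for changes near 0, and in sparse genes it need not match the p-value. DESeq2 1.42.0, limma 3.58.1 on log2(deposited CPM + 1) and other settings were alternatives. On simulated data (12551 genes), 16.4%, 65.7% and 98.5% of 1.5-, 2- and 4-fold changes were recovered for the WT step from EpiLC to day 3. For the interaction over that step the shares were 0%, 29.9% and 93.9%. The simulation gave every gene and group the same spread and changed no sparse genes. Its shares therefore do not hold for sparse members or for the more variable KO groups.

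The KO names mark the same lines across stages: same-named KO libraries deviated together in 9 of 9 pairs of stages (r 0.11 to 0.588). Same-numbered WT libraries did not (r -0.0479 to 0.0659).

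The members and gene lists were chosen with earlier results of these data known. Genes named were the members, Esrrb, up to 3 called genes per list with the largest change, the 8 most alike in profile, up to 8 others lower at all stages, and the 3 nearest tested genes on each side of a member. RefSeq windows were matched by symbol. Some genes that this rule takes are not reported here.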

Additional observations from a re-analysis of the deposited data

Results flagged for a closer look

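In 3 members the KO difference had another size at day 3 than in EpiLC, by the interaction test of edgeR. That test compares differences that were used to choose the members. The KO minus WT log2 fold change of Igfbp2 at day 3 less that in EpiLC was -1.44, as the KO level fell while the WT level gave no call. For Eras it was -0.92, where the WT level rose and the KO level gave no call. For Plcd1 it was 0.76, the opposite direction, where the KO level rose and the WT level gave no call. With 1 library left out at a time, the calls held in 14, 6 and 5 of 18 fits for Igfbp2, Eras and Plcd1.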

How the results depend on the processing

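With 1 library left out at a time, the members called lower in KO numbered 2 to 10 in EpiLC, 6 to 10 at day 3 and 9 to 10 at day 5. In WT, members called from EpiLC to day 3 numbered 3 to 4 higher and 2 to 2 lower, and from day 3 to day 5 0 to 2 higher. In KO they numbered 1 to 2 higher and 1 to 3 lower in the first step, and 0 to 1 higher in the second. Interactions for the first step numbered 0 to 1 positive and 0 to 3 negative, and for the second 0 to 0. With only the groups compared in the fit, the counts were 0 lower in KO EpiLC (0 of 11876 genes in all), 7 higher from day 3 to day 5 in WT (1804 of 11922), 0 higher and 1 lower in the first KO step, 0 higher in the second, and 0 positive and 1 negative first-step interactions. Without a filter on low counts they were 0 higher in the second KO step and 0 positive and 1 negative first-step interactions. Members higher from day 3 to day 5 in WT were 1 with RLE factors, 4 without line A2, 2 by DESeq2 and 1 by limma. In KO they were 2 without line A2 and 0 by limma, which gave 0 positive and 3 negative first-step interactions, Mobp among the negative; without line A2 1 second-step interaction was negative. DESeq2 called 8 members lower in KO EpiLC. It gave no adjusted p for Pkd2l1 there or for the first-step interaction of Pkd2l1, and Mobp missed the threshold in EpiLC (-3.16, adjusted p = 0.0754).

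With the replicate name as a block, 2 members were called higher from day 3 to day 5 in WT (Rhox5, adjusted p = 0.00533, and Smtnl1, 0.0139) and 2 in KO (Upp1, 0.00215, and Rhox5, 0.024), and 0 first-step interactions were positive. The pairing holds in KO lines only. Of 2230 values for single genes under alternatives, 2087 counted as unchanged, 82 lost a call, 36 gained one, 25 moved and 0 reversed. For stage changes and interactions, unchanged meant the same side of the threshold, with no opposite sign where a call was made. For KO against WT, it meant the same sign and a shift smaller than the standard deviation within groups. Calls were not compared there, so KO against WT calls that were lost are not among the 82.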

Other observations

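Outside the 10 members, the genes called lower in KO at all 3 stages with at least 5 CPM in WT and the lowest mean log2 fold change were led by Ldhb, a subunit of lactate dehydrogenase, with log2 fold changes of -0.92 in EpiLC, -2.93 at day 3 and -2.99 at day 5. Aldh1b1, a mitochondrial aldehyde dehydrogenase, gave -1.27, -0.59 and -0.77, and Aplp1, a relative of the amyloid precursor protein, -0.93, -1.13 and -0.51. Utf1, a chromatin factor of pluripotent cells, gave -0.57, -0.75 and -0.94, and the LIM protein gene Csrp2 gave -0.62, -0.68 and -0.85. Syde2, Paip2b and Chmp4c lay between -0.48 and -1.13 at all stages. These genes were taken by the same contrast as the members, so the values are a description.

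Chromosome 16, which carries no member, had a median log2 fold change of -0.28, -0.27 and -0.27 at the 3 stages. By line it was within 0.06 of WT in A5, between -0.42 and -0.47 in B1 and between -0.44 and -0.48 in A2. On chromosome 1, A2 alone stood at 0.24, 0.28 and 0.28. Cox17, which is among the genes most like the members in profile, lies on chromosome 16.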
